A study of Mus musculus with 12 samples.

Results

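Potassium channel genes were examined as the 94 protein-coding genes whose symbol begins with Kcn, out of 57180 genes in the deposited tables of mouse spinal cord lesions. They comprise 40 voltage-gated subunits, 15 inward rectifiers, 14 two-pore leak channels, 8 channels gated by calcium or sodium, 16 auxiliary subunits and 1 further gene, Kcnrg. RNA from the lesion at T9-T10, with about 0.5 cm of cord at either end, was sequenced in 12 libraries from female wild-type C57BL/6J mice, 4 per group, all taken 7 days after a clip compression injury. OVX8_SCI7 mice were ovariectomised 8 weeks before the injury, OVX2_SCI7 mice 2 weeks before it, and SCI7 mice had the injury without ovariectomy. Every group was injured, and neither intact cord nor a sham-operated group was analysed here, so values are not relative to an intact cord. The labels give an age of 8 weeks for all mice without saying at which step, so age, surgery, hormone loss and time since surgery cannot be told apart between the groups.

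Potassium channels set the resting potential and end the action potential, and they differ by cell type. In the cord, astrocytes take up the potassium that active neurons release through Kir4.1 (Kcnj10) and its partner Kir5.1 (Kcnj16), and fast-firing neurons repolarise through Kv1 and Kv3 channels such as Kcna1, Kcna2 and Kcnc1. Macrophages, activated microglia and T cells use the calcium-activated KCa3.1 (Kcnn4) and Kv1.3 (Kcna3), which keep the membrane negative and so maintain calcium entry. Lists of channels of neurons (34 members), immune cells (5), glia (2) and vascular wall cells (3) were set up from such knowledge, and 50 members are in none of them.

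What the pore-forming members share is the selectivity filter, a short loop that admits potassium over sodium. In the coding sequence it was searched as 5 codons, on the coding strand and in frame: a codon for threonine or serine, any codon, GGN, a codon for tyrosine, phenylalanine or leucine, and GGN. All 77 pore-forming members held a match to this pattern, 15 of them at 2 places. Of the 17 auxiliary and other members 0 did, against 5.31% of 21901 protein-coding genes. Matches at 2 places occurred in 13 of the 14 two-pore members, whose subunits carry a pair of pore loops. Kcna6 and Kcnh2, which are voltage-gated and not two-pore members, also matched at 2 places, so a match need not be a filter. The filters of 6 members on which the comparisons turn are shown from GENCODE transcripts of GRCm38, on the coding strand with the 15 filter bases in capitals, so that the coding of a shared loop can be compared between members of different base composition.
Kcnn4, chromosome 7, coding bases 742 to 756: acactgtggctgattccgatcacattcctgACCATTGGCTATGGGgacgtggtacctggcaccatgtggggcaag
Kcna3, chromosome 3, coding bases 1189 to 1203: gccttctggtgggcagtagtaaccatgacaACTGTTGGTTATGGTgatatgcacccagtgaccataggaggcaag
Kcns1, chromosome 2, coding bases 1174 to 1188: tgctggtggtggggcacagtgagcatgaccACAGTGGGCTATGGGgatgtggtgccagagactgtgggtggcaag
Kcnj16, chromosome 11, coding bases 391 to 405: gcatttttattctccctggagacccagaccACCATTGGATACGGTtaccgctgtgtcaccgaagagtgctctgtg
Kcnh7, chromosome 2, coding bases 1879 to 1893: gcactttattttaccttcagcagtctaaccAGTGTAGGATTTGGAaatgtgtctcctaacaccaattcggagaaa
Kcnt2, chromosome 1, coding bases 724 to 738: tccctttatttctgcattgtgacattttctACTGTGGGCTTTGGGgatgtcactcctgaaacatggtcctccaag
The whole coding sequence was 62.7% G and C in Kcnn4, 66.3% in Kcns1 and 58.1% in Kcna3, and 48.5% in Kcnj16, 45.3% in Kcnh7 and 42.7% in Kcnt2.

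The libraries held 18222809 to 31781728 counts. Markers of cord cells were present in every library, with Gfap of astrocytes at 2261 TPM or more and Snap25 of neurons at 237 TPM or more. TPM is a transcript abundance scaled by transcript length, so levels of different genes can be set side by side in it. Replicate 2 of OVX2_SCI7 stood apart by sensory neuron transcripts, with Pirt at 59.28 TPM against 0.06 to 8.47 TPM in the other libraries. Levels of protein-coding genes relative to their mean over all libraries ran with the GC content of the transcript in each library. The Spearman correlation across 12419 genes was 0.181 to 0.870 in OVX8_SCI7, -0.441 to 0.543 in OVX2_SCI7 and -0.849 to -0.531 in SCI7. Transcripts of the mitochondrial genome took 2.20 to 3.36% of counts in OVX8_SCI7, 2.36 to 8.33% in OVX2_SCI7 and 5.35 to 9.35% in SCI7.

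Most potassium channel genes were detected, and a few made up much of the total. Over the 12 libraries 72 of the 94 members averaged above 1 TPM and 33 above 10 TPM, and 13 were at 0 TPM in at least 1 library. Kcnj10 was the most abundant member, with 214.60, 250.06, 331.94 and 267.08 TPM in OVX8_SCI7, 523.59, 398.48, 117.07 and 220.47 TPM in OVX2_SCI7, and 351.28, 387.07, 386.82 and 305.80 TPM in SCI7. It took 20.0 ± 2.71% of the summed member TPM in OVX8_SCI7, 21.6 ± 4.56% in OVX2_SCI7 and 27.5 ± 3.95% in SCI7 (SD, n = 4 each), with overlapping ranges. Next came Kcnab2, a cytoplasmic beta subunit of Kv1 channels, at 153 ± 55.8 TPM in OVX8_SCI7, 159 ± 104 in OVX2_SCI7 and 91.7 ± 33.0 in SCI7. Kcne1l, an auxiliary subunit also known as Kcne5, averaged 77.6 ± 14.1 TPM in OVX8_SCI7, 74.8 ± 27.5 in OVX2_SCI7 and 45.7 ± 6.81 in SCI7. Kcnc1, Kcnk1, Kcna6, Kcna2, Kcnab1 and Kcnh2 were also among the 10 highest, with means over all libraries of 43.8 TPM for Kcnc1 to 33.4 TPM for Kcnh2. Neighbours in this order among these 6 differed by less than their spread over libraries.

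**Figure D1:**
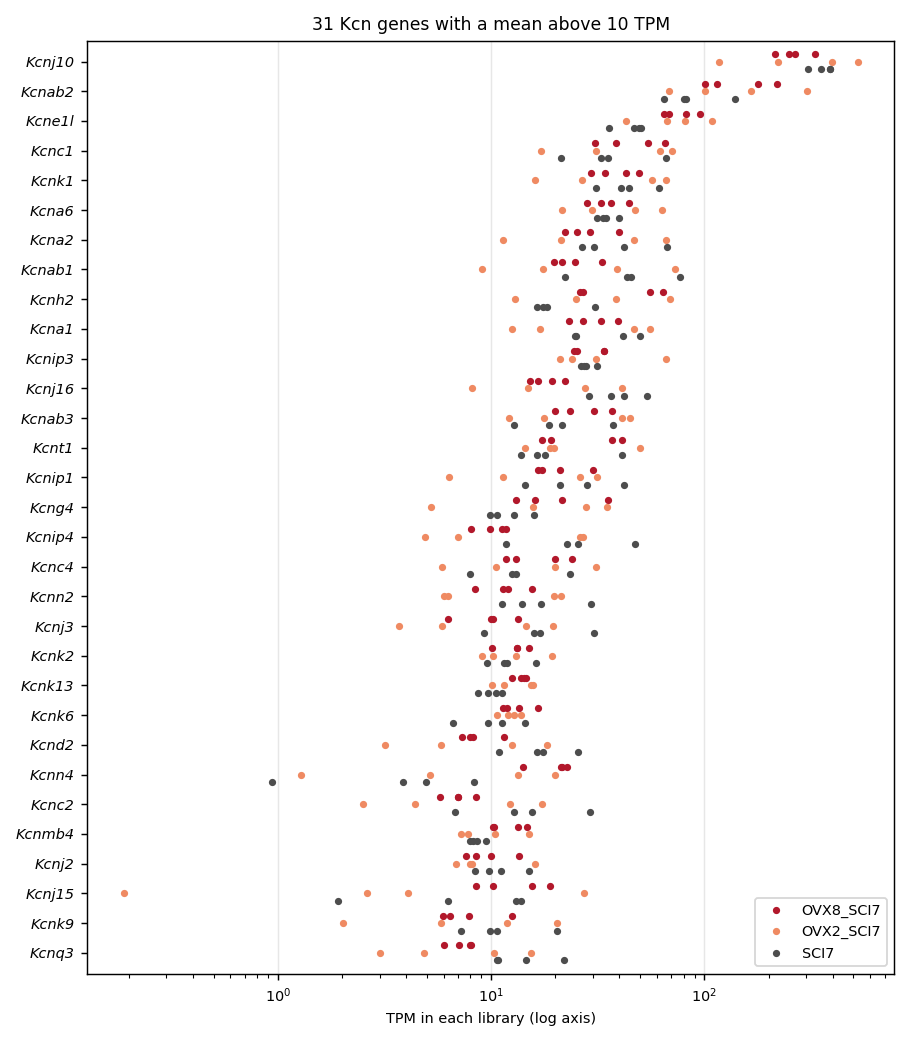
TPM of 31 of the 33 Kcn genes with a mean above 10 TPM, on a log axis, with 1 point per library and the groups OVX8_SCI7, OVX2_SCI7 and SCI7 from top to bottom in each row. Kcnj10 lies highest, and the OVX2_SCI7 points are the most spread for most genes.

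Summed over classes, the 3 groups overlapped. All members together reached 1349.5 ± 316 TPM in OVX8_SCI7, 1412 ± 697 in OVX2_SCI7 and 1335 ± 326 in SCI7 (SD, n = 4 each). Voltage-gated subunits made up 432 ± 138 TPM in OVX8_SCI7, 433 ± 244 in OVX2_SCI7 and 384 ± 138 in SCI7. Inward rectifiers made up 354 ± 63.9, 400.4 ± 202 and 461 ± 54.7 TPM in those groups, and auxiliary subunits 368 ± 94.0, 391 ± 206 and 309.8 ± 92.7 TPM. Two-pore channels, which carry leak current, stood at 112 ± 17.0 TPM in OVX8_SCI7, 113 ± 42.5 in OVX2_SCI7 and 107 ± 23.4 in SCI7. The SD in OVX2_SCI7 exceeded that of both other groups for each of these sums.

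OVX8_SCI7 against SCI7 asks how ovariectomy 8 weeks before the injury bears on the lesion. Of the 77 members with enough counts to be tested, 7 rose and 3 fell, each at a Benjamini-Hochberg adjusted p under 0.05 in the quasi-likelihood test of edgeR over all 17820 genes tested. Kcnn4, Kcna3, Kcnk12, Kcns1, Kcnmb4, Kcne1l and Kcnj8 rose, and Kcnj16, Kcnh7 and Kcnt2 fell. The called members are 13.0% of those tested, while 27.5% of all genes tested were called, 11.9% higher and 15.6% lower, so potassium channels were not called more often than genes at large. Their median log2 fold change was 0.09, against 0.01 over all genes tested. The 4 libraries of both groups did not overlap for 11 members, 14.3% of those tested, against 39.1% of all genes. The other 17 members, such as Kcna10, Kcnj1 and Kcnv2, did not have enough counts, and their highest mean was 0.556 TPM.

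Kcnn4, the calcium-activated channel of macrophages and activated microglia, had the largest fold change of the called members. It stood at 21.28, 21.58, 14.11 and 22.80 TPM in OVX8_SCI7, 1.29, 5.18, 13.37 and 20.05 TPM in OVX2_SCI7, and 3.88, 4.96, 0.94 and 8.33 TPM in SCI7. All OVX8_SCI7 libraries lay above all SCI7 libraries, and OVX2_SCI7 spanned nearly the whole range. The log2 fold change of OVX8_SCI7 over SCI7 was 2.18 (SE 0.72, edgeR adjusted p = 0.0419). In bulk tissue, more channel RNA per cell and more cells that carry it cannot be told apart.

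Kcna3, the Kv1.3 channel of T cells and microglia, stood at 1.72, 3.10, 2.71 and 2.03 TPM in OVX8_SCI7, 1.14, 2.14, 0.85 and 1.24 TPM in OVX2_SCI7, and 0.89, 1.12, 1.41 and 1.47 TPM in SCI7. It was low everywhere and did not overlap between OVX8_SCI7 and SCI7, with a log2 fold change of 0.98 (SE 0.27, edgeR adjusted p = 0.0243). The other members of the immune list missed the threshold. Kcnk13 (THIK-1), the tonic potassium channel of microglia, averaged 13.8 ± 0.911 TPM in OVX8_SCI7 and 10.1 ± 1.10 in SCI7 (SD, n = 4 each), with no overlap, a log2 difference of 0.47 (SE 0.17) and an edgeR adjusted p of 0.0559. Kcnk6 (TWIK-2), a two-pore channel of macrophages, had a log2 difference of 0.37 (SE 0.22), and Kcnj2 (Kir2.1), an inward rectifier of microglia and many other cells, one of -0.12 (SE 0.33). Over the 5 immune channels 2 rose (40.0%, against 27.5% of all genes called), none fell, and the median log2 fold change was 0.47. Their summed level was 51.8 to 69.3 TPM in OVX8_SCI7, 32.7 to 56.4 in OVX2_SCI7 and 27.1 to 45.2 in SCI7.

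Of the glial pair, Kcnj16 fell and Kcnj10 was not called. Kcnj16, the Kir5.1 subunit that pairs with Kir4.1, stood at 15.17, 16.59, 22.30 and 19.23 TPM in OVX8_SCI7, 41.25, 27.65, 8.16 and 14.88 TPM in OVX2_SCI7, and 41.93, 36.38, 54.03 and 28.88 TPM in SCI7. Every OVX8_SCI7 library lay below every SCI7 library, with a log2 fold change of -1.12 (SE 0.35, edgeR adjusted p = 0.0365). For Kcnj10 the log2 difference was -0.40 (SE 0.32, edgeR adjusted p = 0.341), and its TPM values, given above, overlapped. Of 8 astrocyte markers 0 were higher and 1, Gja1, lower in OVX8_SCI7 against SCI7, with a median log2 fold change of -0.41. Of these, Aqp4 (log2 difference -1.04), Slc1a2 (-0.69), Gja1 (-0.63) and Slc1a3 (-0.51) had every OVX8_SCI7 library below every SCI7 library. Sox9 (-0.32), Aldoc (0.14), Gfap (0.24) and Aldh1l1 (0.34) overlapped between these groups. Over all genes tested, 27.5% were called and 39.1% did not overlap. The summed level of the list was 5132 to 7214 TPM in OVX8_SCI7, 3338 to 8941 in OVX2_SCI7 and 6016 to 6802 in SCI7. Gfap alone stood at 3549 to 4946 TPM in OVX8_SCI7, 2261 to 6103 in OVX2_SCI7 and 3495 to 3912 in SCI7 within these sums. The part of astrocytes in the level of Kcnj16 was not tested. Set against its immune counterpart, the log2 ratio of Kcnn4 to Kcnj10 TPM was -4.55 to -3.33 in OVX8_SCI7, -8.56 to -3.12 in OVX2_SCI7 and -8.54 to -5.18 in SCI7. The ratio did not overlap between OVX8_SCI7 and SCI7, and it is given without a test, because the genes were chosen with results known. Transcript GC content was 60.4% for Kcnn4 and 49.6% for Kcnj10. No offset for the GC trend of the libraries was applied to the ratio, and the part of that trend in it was not tested.

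Channels of neurons were called in both directions. Of 33 tested members of the list 2 rose and 2 fell, 12.1% of those tested, against 27.5% of all genes. Their median log2 fold change was -0.18, against 0.01 over all genes. Kcns1, a silent Kv subunit that modifies Kv2 channels and is best known from sensory neurons, stood at 5.97, 8.63, 8.23 and 6.45 TPM in OVX8_SCI7, 6.00, 12.92, 4.03 and 4.65 TPM in OVX2_SCI7, and 3.05, 3.22, 2.54 and 2.88 TPM in SCI7. All libraries of both ovariectomy groups lay above all SCI7 libraries, and the log2 fold change of OVX8_SCI7 over SCI7 was 1.33 (SE 0.28, edgeR adjusted p = 0.0143). Kcnmb4, the neuronal beta4 subunit of BK channels, averaged 12.1 ± 2.26 TPM in OVX8_SCI7 and 8.54 ± 0.674 in SCI7, without overlap, and rose by 0.64 on the log2 scale (SE 0.21, edgeR adjusted p = 0.0432). The BK pore gene itself, Kcnma1, had a log2 difference of -0.73 (SE 0.41) and was not called.

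Kcnt2 and Kcnh7 were the neuronal members that fell. Kcnt2, a sodium-activated channel also known as Slick, stood at 1.23, 1.42, 2.02 and 2.43 TPM in OVX8_SCI7, 1.88, 2.43, 1.38 and 1.01 TPM in OVX2_SCI7, and 2.48, 4.14, 4.52 and 2.66 TPM in SCI7. The highest OVX8_SCI7 library was just under the lowest SCI7 library, and the log2 fold change was -1.12 (SE 0.25, edgeR adjusted p = 0.0143). Its paralog Kcnt1 had a log2 difference of 0.29 (SE 0.38) and was not called. Kcnh7, an erg channel subunit, stood at 0.82, 0.95, 1.01 and 0.84 TPM in OVX8_SCI7 and 1.72, 2.64, 4.82 and 1.51 TPM in SCI7, a log2 fold change of -1.55 (SE 0.51, edgeR adjusted p = 0.0416). Its paralog Kcnh2, more abundant at 43.2 ± 19.5 TPM in OVX8_SCI7 and 20.8 ± 6.71 in SCI7, had a log2 difference of 0.66 (SE 0.36) and was not called.

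Channels of fast-firing axons described next were not called. Kcna1 and Kcna2, the Kv1 subunits beside the nodes of Ranvier, had log2 differences of -0.18 (SE 0.38) and -0.47 (SE 0.42), and Kcnab2 one of 0.75 (SE 0.35). The Kv3 gene Kcnc1 had 0.43 (SE 0.40). Their edgeR adjusted p-values ran from 0.118 for Kcnab2 to 0.740 for Kcna1. Summed over the 34 neuronal channels, levels were 324 to 600.3 TPM in OVX8_SCI7, 179.6 to 681 in OVX2_SCI7 and 273 to 707 in SCI7, so the groups overlapped. Summed markers of neurons (8 genes) were 1472 to 2569 TPM in OVX8_SCI7, 792 to 3973 in OVX2_SCI7 and 1406 to 4374 in SCI7. In OVX8_SCI7 against SCI7 0 of 8 were called, against 27.5% of all genes, with a median log2 fold change of -0.28. Log2 differences were negative for Map2 (-0.93), Snap25 (-0.91), Syt1 (-0.75) and Stmn2 (-0.65). They were positive for Nefl (0.08), Eno2 (0.28), Syp (0.34) and Rbfox3 (0.45), and the libraries overlapped for each marker. The part of these markers in the channel levels was not tested. The log2 ratio of summed immune to summed neuronal channels was -2.83 ± 0.57 in OVX8_SCI7, -3.04 ± 1.26 in OVX2_SCI7 and -3.49 ± 0.88 in SCI7 (SD, n = 4 each), and the ranges of the groups overlapped.

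Of the 3 vascular channels Kcnj8 was called (33.3%, against 27.5% of all genes). Kcnj8, the Kir6.1 pore of the ATP-sensitive channel of pericytes and smooth muscle, averaged 4.47 ± 0.698 TPM in OVX8_SCI7 and 3.15 ± 0.709 in SCI7 and rose by 0.54 on the log2 scale (SE 0.18, edgeR adjusted p = 0.0427), although the libraries overlapped. Kcnmb1, the smooth muscle beta1 subunit of BK channels, had a log2 difference of -0.79 (SE 0.40) and was not called. Among the 34 tested members in no list, Kcne1l and Kcnk12 rose (5.88%). Kcnk12 (THIK-2), a two-pore subunit that stays largely inside the cell, stood at 4.78, 9.04, 7.61 and 3.63 TPM in OVX8_SCI7 and 1.67, 1.59, 4.20 and 1.92 TPM in SCI7, with an overlap through replicate 3 of SCI7 and a log2 fold change of 1.43 (SE 0.46, edgeR adjusted p = 0.0394). Kcne1l rose by 0.73 (SE 0.23, edgeR adjusted p = 0.0356), without overlap.

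**Figure D2:**
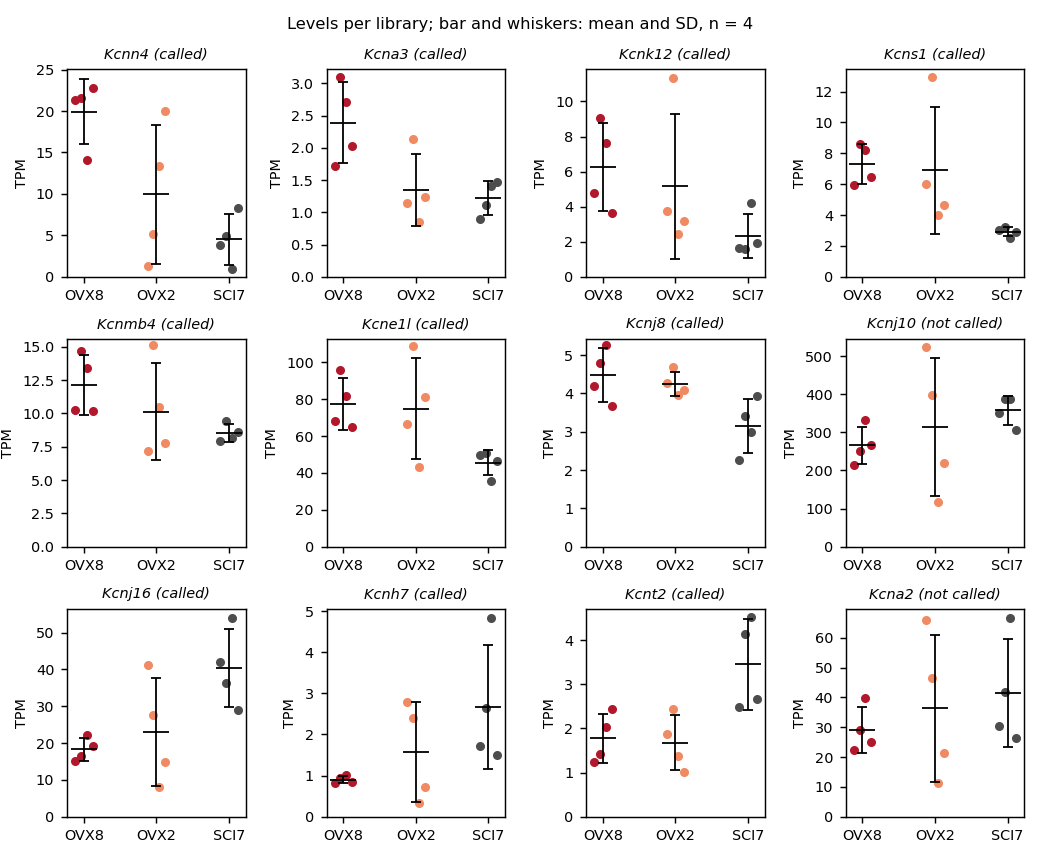
TPM per library in OVX8, OVX2 and SCI7 (short for the 3 groups) for the 10 members called in OVX8_SCI7 against SCI7 and for Kcnj10 and Kcna2, which were not called, with the mean as a bar and the SD as whiskers (n = 4). Each axis starts at 0, and the OVX2_SCI7 libraries span a wide range in most panels, for Kcnn4 1.29 to 20.05 TPM.

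Genes outside the family that act with these channels were read from a list of 27, of which 25 could be tested. In OVX8_SCI7 against SCI7 1 rose and 2 fell, while 27.5% of all genes tested were called. Genes of this list were thus not called more often than genes at large. Hcn2, a cation channel opened by hyperpolarisation, averaged 315 ± 84.8 CPM (counts-per-million) in OVX8_SCI7 and 165 ± 23.1 in SCI7 (SD, n = 4 each) and rose by 0.93 on the log2 scale (SE 0.26, edgeR adjusted p = 0.0258). Slc12a2, the NKCC1 cotransporter that carries potassium into cells, averaged 202 ± 19.9 CPM in OVX8_SCI7 and 401 ± 57.1 in SCI7 and had a log2 fold change of -0.99 (SE 0.28, edgeR adjusted p = 0.0256). Atp1b3, a beta subunit of the sodium pump, had -0.43 (SE 0.14, edgeR adjusted p = 0.0452). Aqp4, the water channel found with Kcnj10 on astrocyte endfeet, averaged 1128 ± 148 CPM in OVX8_SCI7 and 2328 ± 476 in SCI7, without overlap, and missed the threshold (log2 difference -1.04, SE 0.37, edgeR adjusted p = 0.0530).

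Leaving out 1 library moved adjusted p-values across the threshold and kept the direction of every called member. Over these fits the log2 fold change ran from 1.24 to 1.42 for Kcns1, from -1.25 to -0.98 for Kcnt2 and from 1.83 to 2.56 for Kcnn4. Of 12 fits that each left out 1 library, Kcns1 and Kcnt2 stayed called in 11, Kcna3 in 8, Kcne1l and Kcnk12 in 6, Kcnn4, Kcnj16 and Kcnh7 in 5, and Kcnj8 and Kcnmb4 in 4, each with the same sign in all 12. The adjusted p of Kcnn4 ran from 0.0116 to 0.0937 over these fits. Some of the 12 fits left out an OVX2_SCI7 library, which is not in this comparison. Among those that left out an OVX8_SCI7 or SCI7 library, Kcnn4, Kcnj16 and Kcnh7 stayed called only without replicate 4 of SCI7. Kcnmb4 stayed called there only without replicate 4 of OVX8_SCI7. Without replicate 2 of OVX8_SCI7, the deepest library, no member was called, and neither was any of the 18130 genes tested (smallest edgeR adjusted p = 0.0573, with 6068 genes at an unadjusted p under 0.05). Higher and lower member calls numbered 2 and 1 without replicate 1 of OVX8_SCI7 (1001 and 1535 of 18129 genes), 1 and 1 without its replicate 3 (6.70% of all genes), and 6 and 1 without its replicate 4 (25.6%). For SCI7 they numbered 2 and 1 when replicate 1 was left out (12.9% of all genes), 1 and 1 for replicate 2 (9.09%), 3 and 1 for replicate 3 (16.1%), and 4 and 7 for replicate 4 (26.8%). Leaving out replicate 1 or 3 of OVX2_SCI7, which is in the fit only through the shared spread, gave 8 and 7 (37.2% of all genes) or 8 and 9 (33.4%). DESeq2 called 15 of the 77 members, with all 10 above among them, against 35.9% of all genes.

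The fold changes of the members followed the GC content of their transcripts. Across the 77 tested members the Spearman correlation of the log2 fold change with transcript GC content was 0.858, across the 33 neuronal channels 0.919, and across 15087 protein-coding genes 0.818. Genes of 1 library share its depth and base composition and are not replicates, so these values describe the libraries. With members ranked by GC content into 3 bins, the highest bin held 26 members from 56.4 to 69.4%, and all 26 log2 fold changes there were positive, with a median of 0.63 and 6 members higher. In the middle bin, 26 members from 48.1 to 55.8%, the median was 0.07 and Kcnj8 was the 1 member called. In the lowest bin, 25 members from 36.6 to 47.9%, 21 were negative, the median was -0.79 and all 3 lower calls fell there.

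With an offset for the trend of each library on GC content and transcript length, no member was called in OVX8_SCI7 against SCI7, and 0% of all genes were. The smallest adjusted p of a member was then 0.199 in edgeR, and 2 of 77 members had an unadjusted p under 0.05, against 2720 of 17820 genes. Kcnn4 was not among these 2 (unadjusted p = 0.0521 in edgeR). It kept the largest difference, 1.40 on the log2 scale (edgeR adjusted p = 0.332), while Kcnj16 had -0.60 (0.393), Kcnh7 -0.60 (0.487) and Kcns1 0.48 (0.399). Kcnk12 moved to 0.27, Kcnj8 to 0.14 and Kcna3 to 0.12. Kcnt2 moved to 0.08, Kcnmb4 to -0.35 and Kcne1l to -0.0047, so their direction depended on this step. The correlation with GC content was then 0.169 over members. With the offset 22 members were positive and 55 negative, with a median of -0.24, against -0.06 over all genes. Of the 33 neuronal channels 5 were positive and 28 negative, with a median of -0.28. The offset removes any difference that runs with GC content, whatever its source, and whether the trend arose in the tissue or in the libraries was not tested.

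**Figure D3:**
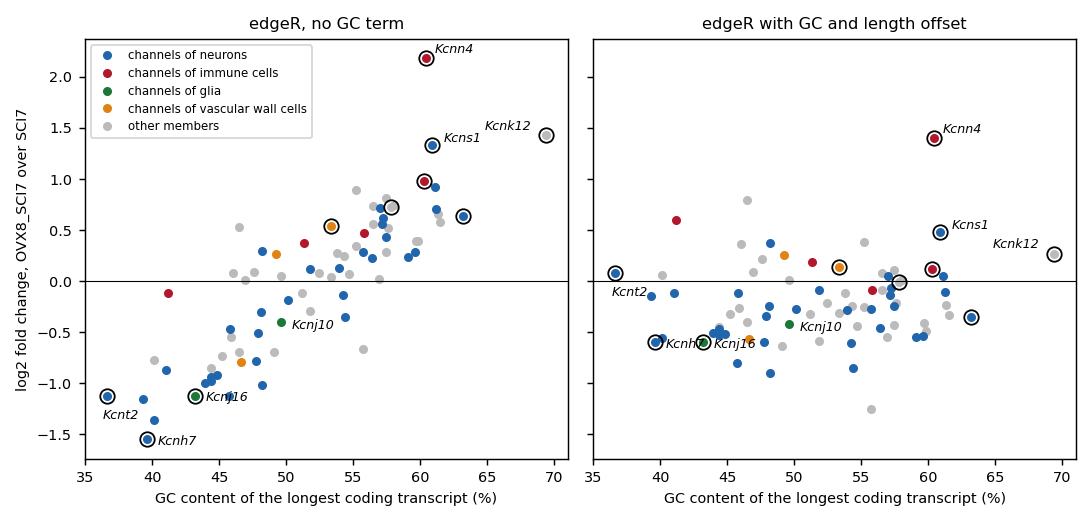
Log2 fold change of OVX8_SCI7 over SCI7 for the 77 tested Kcn genes against transcript GC content in percent, without (left) and with (right) an offset for GC content and length. Colours give the cell lists and rings the 10 called members. The rising band at the left, with a Spearman correlation of 0.858, is nearly flat at the right, where Kcnn4 lies highest at 1.40.

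Kcnn4 was set beside Cd68, a lysosomal protein of macrophages and 1 of 8 markers on the list of microglia and macrophages, chosen after values were seen. Cd68 stood at 890.13, 877.95, 849.62 and 930.60 TPM in OVX8_SCI7, 138.07, 328.48, 907.73 and 1086.90 TPM in OVX2_SCI7, and 349.31, 408.77, 77.08 and 643.91 TPM in SCI7. Ordered by Kcnn4 or by Cd68, the 4 libraries came in the same order within OVX2_SCI7 and within SCI7, and in OVX8_SCI7 the order differed only between replicates 1 and 2. Other markers of the same list gave other orders. Csf1r, the receptor for macrophage colony-stimulating factor, was highest within OVX8_SCI7 in replicate 3 (460.92 TPM), where Kcnn4 was lowest, and highest within OVX2_SCI7 in replicate 2 (442.21 TPM), while its order within SCI7 was that of Kcnn4. Aif1, the microglial protein Iba1, gave the order of Kcnn4 within OVX2_SCI7 and not within OVX8_SCI7 or SCI7. The summed TPM of 8 markers of microglia and macrophages was 1614 to 1804 in OVX8_SCI7, 680.4 to 1816 in OVX2_SCI7 and 468 to 1344 in SCI7. Of these 8 markers 2 were higher and 1 lower in OVX8_SCI7 against SCI7, with a median log2 fold change of 0.57, and Cd68 itself was not called (1.21, SE 0.65, edgeR adjusted p = 0.171). Of all genes tested, 27.5% were called. Markers of T and B lymphocytes summed to 4.88 to 7.99 TPM in OVX8_SCI7, 4.10 to 9.31 in OVX2_SCI7 and 2.38 to 3.20 in SCI7, with Cd3d at 0 in 3 libraries and Ms4a1 and Cd8a at 0 in 1 each. The part of these cells in the levels of Kcnn4 and Kcna3 was not tested.

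**Figure D4:**
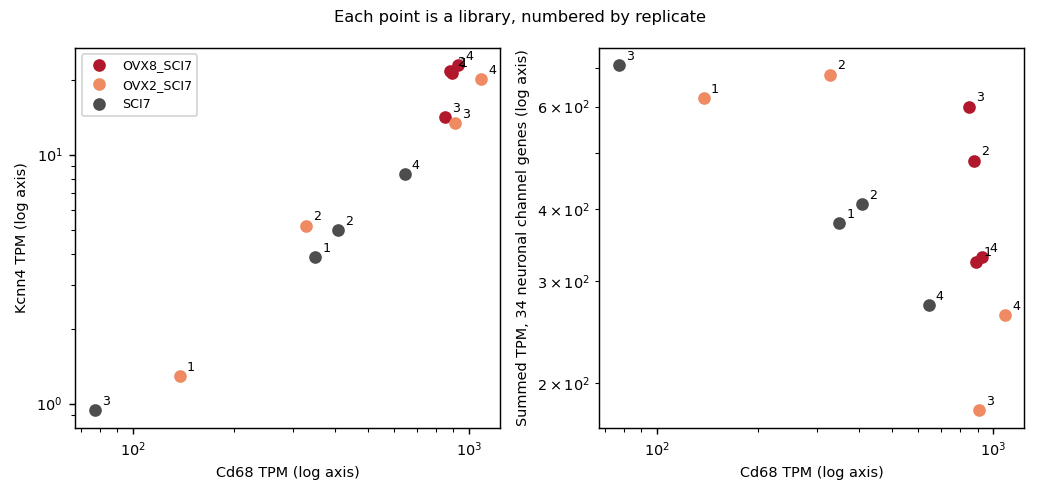
TPM of Kcnn4 (left) and summed TPM of the 34 neuronal channel genes (right) against TPM of Cd68, on log axes, with 1 point per library numbered by replicate and coloured by group. Kcnn4 and Cd68 are lowest together in replicate 3 of SCI7 (0.94 and 77.08 TPM), while the neuronal sum is highest there, at 707 TPM.

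OVX2_SCI7 against SCI7 asks the same question for the shorter interval of 2 weeks. No member and 0 of 17820 genes passed in edgeR. An unadjusted p under 0.05 in edgeR was found for 11 of the 77 members tested, against 5787 of the 17820 genes. DESeq2 called 6 members, Kcne1l, Kcnj8, Kcnk13, Kcnn1 and Kcns1 higher and Kcnt2 lower, against 20.8% of all genes. The smallest edgeR adjusted p was 0.0520, for Kcnt2 at 1.68 ± 0.617 TPM in OVX2_SCI7 and 3.45 ± 1.03 in SCI7 (log2 difference -1.19, SE 0.25) and for Kcns1 at 6.90 ± 4.10 against 2.92 ± 0.290 (1.25, SE 0.28). Kcns1, Kcnt2 and Kcnj8 were the 3 members, 3.90% of those tested, whose libraries did not overlap, against 12.4% of all genes. OVX8_SCI7 and OVX2_SCI7 share the SCI7 libraries, so alike values in both comparisons are not independent.

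Kcnn4 had a log2 difference of 1.31 (SE 0.70) in OVX2_SCI7 against SCI7, Kcnj16 -0.78 (SE 0.35), Kcnj10 -0.15 (SE 0.32) and Kcna3 0.18 (SE 0.28). The edgeR adjusted p-values of these 4 were 0.212, 0.145, 0.763 and 0.671. Medians were 0.35 over the immune list, -0.23 over the neuronal list and 0.02 over all members, against 0.04 over all genes, and the correlation with GC content across members was 0.801. With the GC and length offset no member was called, against 0.0449% of all genes. Without replicate 1 of OVX2_SCI7, which had the highest mitochondrial share of its group, 10 members were called (5 higher, with Kcnn4 among them, and 5 lower, with Kcnj16), against 34.7% of all genes.

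OVX2_SCI7 was the group in which members varied most. The coefficient of variation of TPM had a median of 26.3% over the 77 tested members in OVX8_SCI7, 63.4% in OVX2_SCI7 and 40.9% in SCI7, and it was highest in OVX2_SCI7 for 72 of them. The same value over all genes is not given here. Outside the family, the SD of Gfap was 1587 TPM in OVX2_SCI7, 626 in OVX8_SCI7 and 193 in SCI7. For Ptprc, a marker of microglia and macrophages, the SD was highest in SCI7 (13.9 TPM, against 10.8 in OVX2_SCI7). Replicate 1 had the highest Kcnj10 of all libraries (523.59 TPM) and a low Kcnn4 (1.29 TPM), and replicate 3 had the lowest Kcnj10 (117.07 TPM) and Kcna2 (11.33 TPM). Replicate 2, with the sensory neuron transcripts, was the highest of the 12 libraries for Kcnn1, an SK channel (16.39 TPM), Kcnd1, a Kv4 channel (19.86 TPM), Kcnt1 (50.12 TPM), Kcnk12 (11.32 TPM), Kcns1 (12.92 TPM) and Kcnh6 (3.67 TPM).

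OVX8_SCI7 against OVX2_SCI7 compares the times since ovariectomy directly. No member was called by edgeR, where 0 of 17820 genes passed, or by DESeq2, where 0.0337% of genes did. Of the 77 members tested 1, Kcna3, had an unadjusted p under 0.05 in edgeR, against 393 of the 17820 genes. Kcna3 stood at 2.39 ± 0.628 TPM in OVX8_SCI7 and 1.34 ± 0.557 in OVX2_SCI7 (SD, n = 4 each), a log2 difference of 0.80 (SE 0.27, edgeR adjusted p = 0.999). For Kcnn4 the log2 difference was 0.86 (SE 0.69), for Kcnj16 -0.34 (SE 0.35) and for Kcnj10 -0.25 (SE 0.32).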

How the data were processed

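The submitters' processing notes list fastp 0.23.4, HISAT2 2.2.1, RSEM 1.3.3, DESeq2 1.42.0, edgeR and limma, and the build GRCm39. The library kit and whether counting used strand are not given in the sources used here. The authors deposited expected counts (estimated by RSEM, rounded to whole numbers here), TPM and FPKM for 57180 genes, per the file headers. The 9 group columns equal the means of 4 libraries and were not used as samples. The labels call the samples biological replicates.

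All 12 libraries were fitted together by group in edgeR 4.0.16 (R 4.3.3): filterByExpr by group (17820 genes), TMM scaling, robust quasi-likelihood F-test, Benjamini-Hochberg adjustment over all genes tested, threshold 0.05. Fold changes come from this fit, and "tested" means past the filter. The SE is the log2 fold change divided by the square root of F. Ratios use TPM plus 0.1. Alternatives were DESeq2, its size factors, limma 3.58.1 (voom, and trend on log2(TPM + 1)), no filter or a stricter one (1 CPM or more in 4 libraries, mean count 50 or more), 8 libraries alone, the replicate number as a block, leaving out libraries, and an offset for GC content and length. The offset was fitted per library as a natural spline (5 degrees of freedom) to genes averaging 5 CPM or more. GC content and length are those of the longest protein-coding transcript in GENCODE vM21 (GRCm38), matched for 17448 of 17820 genes. That build is older than the one of the counts, and no coordinates were carried over. The scripts were tested on simulated data.

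The members and lists were chosen with earlier results of these data known. Named are, per comparison, up to 10 called members in each direction without overlap and with a mean of at least 1 CPM, or the 10 with the smallest p where fewer than 5 passed. Added are 15 fixed members, the 10 most abundant, the top member of each class, and 4 partner genes with the smallest p. Kcnk12 and Kcnj8, called with overlap, are named too, as are Kcna10, Kcnj1 and Kcnv2 as examples. Some members that this rule names are not reported here.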

Additional observations from a re-analysis of the deposited data

Results flagged for a closer look

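In 9 of 108 groups of 4 libraries, 1 library lay far from the other 3 by a gap test. For a single group chance gives about 1 in 20. The groups share the same 12 libraries and the members were chosen with results known, so the count cannot be set against that rate. Replicate 2 of OVX2_SCI7 was the high library for Kcnh3 (0.45 TPM, others 0.09 to 0.13), Kcnh6 (3.67 TPM, others 0.29 to 0.71), Kcnk12 (11.32 TPM, others 2.42 to 3.78), Kcnn1 (16.39 TPM, others 4.42 to 6.06) and Kcnt1 (50.12 TPM, others 14.49 to 19.76). It is also the library with Pirt at 59.28 TPM. Replicate 3 of OVX2_SCI7 was the high library for Kcnj2, at 16.13 TPM against 6.85 to 8.12 in the others. Replicate 3 of SCI7 was the high library for Kcnh2 (30.81 TPM, others 16.46 to 18.39), Kcnk12 (4.20 TPM, others 1.59 to 1.92) and Kcnt1 (41.04 TPM, others 13.76 to 17.90). That library also had the highest Snap25 (2065 TPM) and the lowest Cd68 (77.08 TPM) of the 12.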

How the results depend on the processing

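In OVX8_SCI7 against SCI7, the 7 higher members became 4 with no filter (9.78% of all genes called) and 3 with limma-trend (16.8%). They became 0 with the GC and length offset (0%) and 0 to 8 when 1 library was left out (0 to 37.2%). The 3 lower members became 7 with DESeq2 (35.9% of all genes called), 0 with limma-trend and 0 with the offset. They became 13 with the 8 libraries alone (43.0%), 12 without replicates 1 and 2 of OVX2_SCI7 together (41.9%) and 0 to 9 when 1 library was left out. In OVX2_SCI7 against SCI7, the 0 higher and 0 lower members became 1 and 1 with the stricter filter (7.96% of all genes called), 5 and 1 with DESeq2 (20.8%) and 1 and 1 with limma-voom (5.01%). They became 4 and 24 without those replicates together (38.8%), and 0 to 5 of each when 1 library was left out (0 to 34.7%). No alternative run called a member in OVX8_SCI7 against OVX2_SCI7. The offset reversed Hcn2 (-0.09), Kcne1l (-0.0047), Kcnmb4 (-0.35) and Kcnt2 (0.08). The ratios of summed or single channels stayed within 1 SD with a pseudocount of 1 or FPKM. The causes were not tested.

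The labels do not say whether replicate numbers pair the libraries. Same-numbered libraries correlated at -0.749 to 0.663 between groups. Differently numbered libraries were not compared, so these values cannot decide on pairing. With the replicate block 3 members were higher and 1 lower in OVX8_SCI7 against SCI7 (Kcna3, Kcne1l, Kcns1 and Kcnt2), and none in the other comparisons. With block and offset 0 members were higher and 0 lower in OVX8_SCI7 against SCI7 (0.00561% of all genes called). Hcn2 (-0.04), Kcnmb4 (-0.34) and Kcnt2 (0.09) were reversed.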
